A study of Mus musculus with 20 samples.

Results

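Messenger RNA of 9 nuclear genes for mitochondrial iron-sulfur (Fe-S) cluster assembly and lipoate synthesis was followed through classical activation of mouse macrophages, with and without a gene of nitric oxide (NO) metabolism. The genes were picked by name: Nfs1, Iscu, Hscb, Glrx5, Isca1, Isca2, Bola3, Nfu1 and Lias. All 9 were present among the 56748 genes of each of the 2 count tables, and all 9 passed the minimum of 10 counts summed over a table, with 18691 genes tested in the first table and 19569 in the second. Each member was protein-coding, and the lowest count of any member in any library was 134.

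The first table held 12 libraries labelled as bone marrow-derived macrophages (BMDMs) grown with 20 ng/mL M-CSF, from wild-type (WT) C57BL/6J mice or mice lacking inducible NO synthase (iNOS KO). The labels give males or females aged 6 to 12 weeks, where the study's methods give a narrower age range. The methods name the iNOS KO allele as Nos2tm1Lau and describe marrow pooled within a genotype. Each genotype had 3 unstimulated libraries and 3 libraries stimulated for 48 h with 50 ng/mL LPS and 30 ng/mL IFNγ. The study's methods describe RNA from iNOS KO RAW264.7 cells where the labels give BMDMs, so the cell type of these libraries is uncertain and they are called BMDM-labelled here. The second table held 8 libraries of RAW264.7, a mouse macrophage-like cell line, either WT or made Akr1a1 KO by CRISPR-Cas9 and grown from single sorted cells. Akr1a1 encodes an aldo-keto reductase that reduces S-nitroso-CoA. Each genotype had 2 unstimulated libraries and 2 stimulated for 48 h with the same LPS dose and IFNγ at 10 ng/mL, which the methods call independent clones. The stimuli were washed off before RNA was collected, and the labels do not say whether BMDM-labelled replicates came from separate mice, so p-values measure the spread between these libraries, which may be technical.

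Fe-S clusters are cofactors of iron and sulfide that carry electrons or activate substrates in respiratory complexes and DNA enzymes. In mitochondria the cysteine desulfurase NFS1 supplies sulfur to the scaffold ISCU, the co-chaperone HSCB helps release the new cluster, and the glutaredoxin GLRX5 carries it on. ISCA1 and ISCA2 build larger clusters from these, and BOLA3 and NFU1 deliver them to late targets, among them LIAS, which inserts sulfur to make the lipoyl group of pyruvate and 2-oxoglutarate dehydrogenases. Activated macrophages make NO through iNOS, and NO is known to attack Fe-S clusters. These counts measure mRNA only, and neither clusters nor lipoylation was measured here.

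Promoters of 3 members are shown as examples of different patterns described below. Bola3 fell with stimulation in both genotypes of both tables, as did Glrx5, which is not shown. In the BMDM-labelled table, Isca1 responded in opposite directions in WT and iNOS KO, and Isca2 rose in both. Isca2 passed in neither RAW264.7 genotype. The promoters are the 250 bases before the transcription start in RefSeq (GRCm38.p6), which listed 7 of the 9 genes, without Iscu and Hscb. The order is Bola3 at chr6:83348897-83349146 on the plus strand (the first of 3 listed starts, chosen by position), Isca1 at chr13:59769790-59770039 on the minus strand and Isca2 at chr12:84773020-84773269 on the plus strand. Capitals mark matches to 6 motifs searched on both strands.
Bola3: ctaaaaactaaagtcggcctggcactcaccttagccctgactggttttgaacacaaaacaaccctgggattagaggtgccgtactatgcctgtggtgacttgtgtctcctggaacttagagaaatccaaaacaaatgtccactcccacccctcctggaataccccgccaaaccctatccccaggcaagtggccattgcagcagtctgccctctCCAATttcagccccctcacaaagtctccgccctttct
Isca1: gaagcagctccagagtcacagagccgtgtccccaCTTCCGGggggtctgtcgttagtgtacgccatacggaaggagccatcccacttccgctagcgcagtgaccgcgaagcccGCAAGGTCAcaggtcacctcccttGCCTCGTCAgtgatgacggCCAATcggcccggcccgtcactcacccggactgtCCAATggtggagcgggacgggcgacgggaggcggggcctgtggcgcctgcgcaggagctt
Isca2: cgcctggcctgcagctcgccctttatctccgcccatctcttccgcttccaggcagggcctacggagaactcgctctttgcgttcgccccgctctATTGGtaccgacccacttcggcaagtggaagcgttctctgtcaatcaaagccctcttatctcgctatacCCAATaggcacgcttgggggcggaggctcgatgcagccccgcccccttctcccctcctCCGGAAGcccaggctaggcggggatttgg
The Bola3 window held a single CCAAT box (CCAAT), and the Isca2 window held 2 CCAAT boxes and 1 ETS motif (CCGGAAG). The Isca1 window held 2 CCAAT boxes, 1 ETS motif and 2 copies of the antioxidant response element core (TGACNNNGC). The window of Nfs1, which passed in no stimulation comparison below, also held CCGGAAG and TGACNNNGC. CCAAT was also in the windows of Glrx5 and Nfu1. Of 32851 RefSeq windows of this length, 33.8% held CCAAT, 6.91% held CCGGAAG and 10.2% held TGACNNNGC. No window of a member held the palindromic NRF1 motif (0.782% of all windows), the gamma-interferon activated site (TTCNNNGAA, 7.02%) or the interferon-stimulated response element, searched as a pair of GAAA with 2 bases between (2.98%). These matches describe letters in these windows only, since no binding data were analysed here. The Bola3 window had 52% G and C and 4 CpG dinucleotides, against 66.4% and 23 for Isca1 and 62.4% and 19 for Isca2. Which of the Bola3 starts these cells use was not measured. The window of its second start also held CCAAT. The window of its last start had 70.4% and 21, and it held no match to any of the 6 motifs.

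The libraries were checked before the members were read. Total counts ran from 15072109 to 18878107 in the BMDM-labelled table and from 11876719 to 44583327 in the RAW264.7 table. Nos2, the gene of iNOS, was listed at 0 in unstimulated iNOS KO libraries and at 870.3 to 911.8 CPM (read counts scaled to library size) in stimulated ones, against 10370 to 11530 in stimulated WT. Akr1a1 was at 206 and 21.84 CPM in unstimulated and 370.3 and 211.7 in stimulated Akr1a1 KO replicates A and B, and at 426.8 to 674.6 in WT. All 4 KO libraries were below WT but kept reads of the gene and differed widely, and Akr1a1 itself was not called between the genotypes (log2 fold change -2.01 ± 0.797, adjusted p = 0.56 unstimulated, and -1.10 ± 0.774, adjusted p = 0.643 stimulated). The unstimulated RAW264.7 replicates B of both genotypes have titles that say stimulated, but their treatment field and library name say unstimulated, and they were grouped by the treatment field. The stimulation marker Acod1 was at 35.8 to 59.92 CPM in all 4 unstimulated RAW264.7 libraries and at 5728 to 7297 in the 4 stimulated ones. Replicate B of stimulated iNOS KO stood apart from its group (chi-square per degree of freedom over gene counts of 26.3 and 33.6 against A and C, and 6.12 between A and C). In RAW264.7 that measure was 61.6 between the stimulated WT libraries, 35 between the stimulated Akr1a1 KO, 27.2 between the unstimulated WT and 14.1 between the unstimulated Akr1a1 KO libraries, all above the other BMDM-labelled groups, and the measure also grows with depth. The 7 macrophage markers summed to 2902 CPM or more in every library, while 5 lymphocyte markers summed to at most 0.6923 and the neutrophil marker Ly6g was at 0 in all BMDM-labelled groups. Another neutrophil marker, S100a8, reached 60.93 CPM in stimulated WT BMDM-labelled libraries and 418.7 in stimulated Akr1a1 KO RAW264.7.

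Per kilobase of gene length as the table lists it, Glrx5 and Iscu had the highest levels in all 4 BMDM-labelled groups and Isca1 the lowest mean, though in stimulated WT it overlapped Bola3. In unstimulated WT the order was Glrx5 at 29.02 ± 0.999 CPM per kb (SD, n = 3), Iscu at 28.57 ± 1.63, Nfs1 at 13.16 ± 0.454, Hscb at 12 ± 1.28, Isca2 at 7.789 ± 0.126, Bola3 at 6.636 ± 0.161, Lias at 5.29 ± 0.295, Nfu1 at 5.274 ± 0.0886 and Isca1 at 2.712 ± 0.105. Glrx5 and Iscu overlapped, as did Nfs1 and Hscb, and Lias and Nfu1. The other neighbours in the order did not overlap. The early-step genes Nfs1, Iscu, Hscb and Glrx5 were thus all above the late ones per length in these unstimulated WT libraries. Isca1 has a listed length of 10680 bases, against 905 for Hscb, and how the listed lengths were set is not given in the sources used here. In stimulated WT, Hscb rose to 18.92 ± 1.13 CPM per kb and overlapped Iscu at 20.17 ± 2.67. In unstimulated WT RAW264.7 the order opened with Iscu at 25.44 ± 0.969 (SD, n = 2), Glrx5 at 20.28 ± 0.354 and Hscb at 19.06 ± 0.728, and Isca1 was again lowest at 3.731 ± 0.536. The early genes were not all above the late ones there, since Isca2 at 13.9 ± 0.276 lay above Nfs1 at 11.88 ± 1.28.

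**Figure D1:**
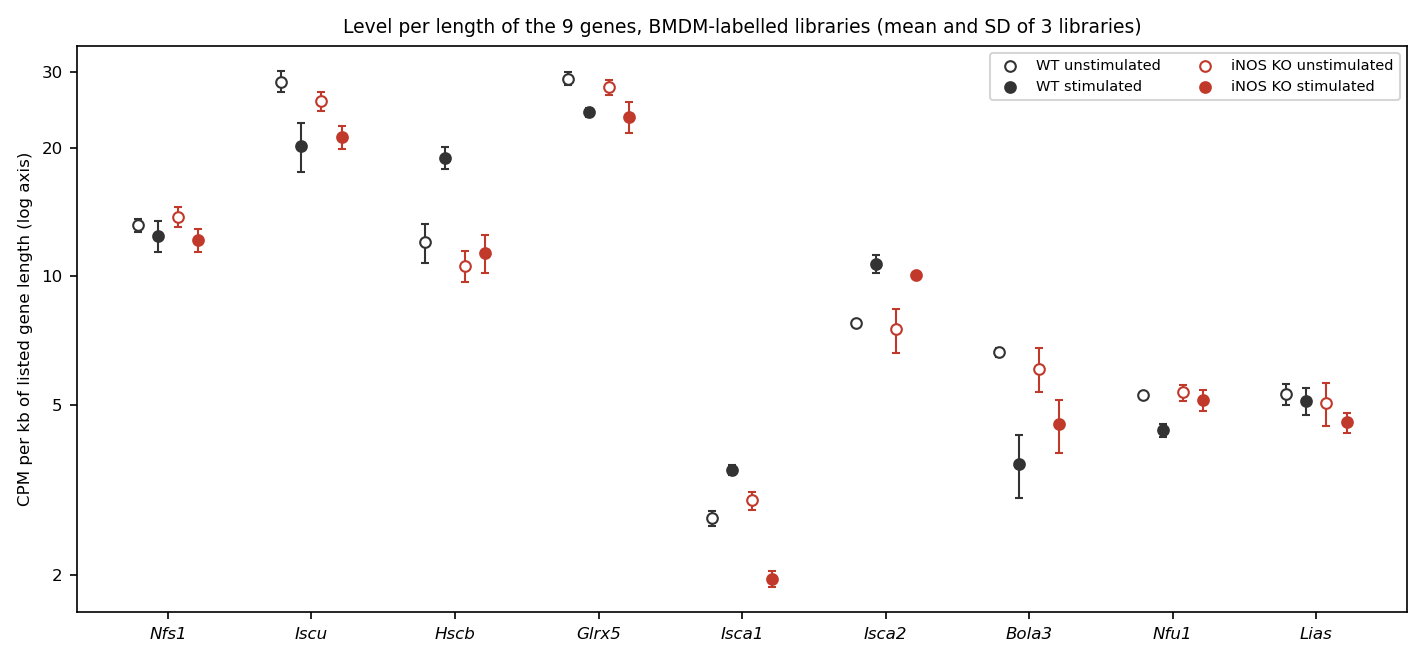
Level per length (CPM per kb of listed gene length, log axis) of the 9 genes in the BMDM-labelled libraries, as mean and SD of 3 libraries in each of 4 groups. Glrx5 and Iscu have the highest and Isca1 the lowest mean in every group (Isca1 and Bola3 overlap in stimulated WT), and the 4 groups spread most for Hscb, Isca1 and Bola3.

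The first question was how these genes answered LPS and IFNγ when iNOS was intact. In WT BMDM-labelled libraries the answer was split: 4 genes fell (Iscu, Glrx5, Bola3 and Nfu1), 3 rose (Hscb, Isca1 and Isca2), and Nfs1 and Lias did not pass the test. These 7 of 9 calls stand against 60.9% of all genes tested that were called in this comparison (32.4% higher and 28.5% lower), so the count itself does not set the members apart. Calls are at a Benjamini-Hochberg adjusted p under 0.05 in edgeR's quasi-likelihood test over all genes, with no limit on fold. The median log2 fold change of the 9 genes was -0.08, and that of all genes tested was 0.07.

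Nfs1, the sulfur donor, ranged from 45.65 to 48.57 CPM in unstimulated WT and from 41.33 to 48.94 in stimulated WT (log2 fold change -0.08, 95% interval -0.25 to 0.09, adjusted p = 0.402). The ranges overlapped. Iscu, the scaffold, was at 64.09, 58.08 and 64.32 CPM in the unstimulated libraries and at 37.18, 47.12 and 47.34 in the stimulated ones. All stimulated values were lower, with replicate A lowest, and Iscu fell by 0.50 ± 0.0927 (SE) on the log2 scale (adjusted p = 0.000159). Hscb, the co-chaperone of the scaffold, was at 11.91, 11.06 and 9.624 CPM before and 16.2, 16.94 and 18.23 after stimulation. The groups did not overlap, and Hscb rose 1.57-fold (log2 fold change 0.65 ± 0.114, adjusted p = 8.74e-05). Glrx5 was at 110.9, 105.8 and 103.8 CPM unstimulated and 88.35, 87.69 and 91.63 stimulated. This carrier of new clusters fell by 16.5% with no overlap (log2 fold change -0.26 ± 0.0703, adjusted p = 0.00414).

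Among the late-acting genes, Isca1 was at 30.25, 28.23 and 28.4 CPM unstimulated and 36.35, 38.27 and 37.91 stimulated. Its partner Isca2 was at 14.05, 14.39 and 14.5 unstimulated and 18.9, 19.44 and 20.72 stimulated. Both rose without overlap, Isca1 by 29.5% (log2 fold change 0.37 ± 0.0756, adjusted p = 0.000393) and Isca2 by 37.6% (0.46 ± 0.0968, adjusted p = 0.000547). Bola3 was at 21.53, 21.67 and 20.72 CPM unstimulated and at 9.416, 12.89 and 12.68 stimulated. It had the largest fall of the 9, by 45.2% (log2 fold change -0.87 ± 0.131, adjusted p = 1.95e-05), again with replicate A lowest. Nfu1, which acts beside BOLA3 in delivery to lipoyl synthase, was at 25.87, 25.01 and 25.41 CPM and then at 21.39, 21.47 and 20.17. It fell by 17.4% (log2 fold change -0.28 ± 0.0803, adjusted p = 0.00695). Lias itself ranged from 22.78 to 25.47 CPM unstimulated and from 21.67 to 25.11 stimulated (log2 fold change -0.05, 95% interval -0.26 to 0.16, adjusted p = 0.683). The groups of these 7 genes did not overlap, as those of 67.8% of all genes tested did not. The 7 calls and their directions were the same with any 1 of the compared libraries left out. In bulk RNA, a change in the mix of cells and a change in RNA per cell cannot be told apart.

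**Figure D2:**
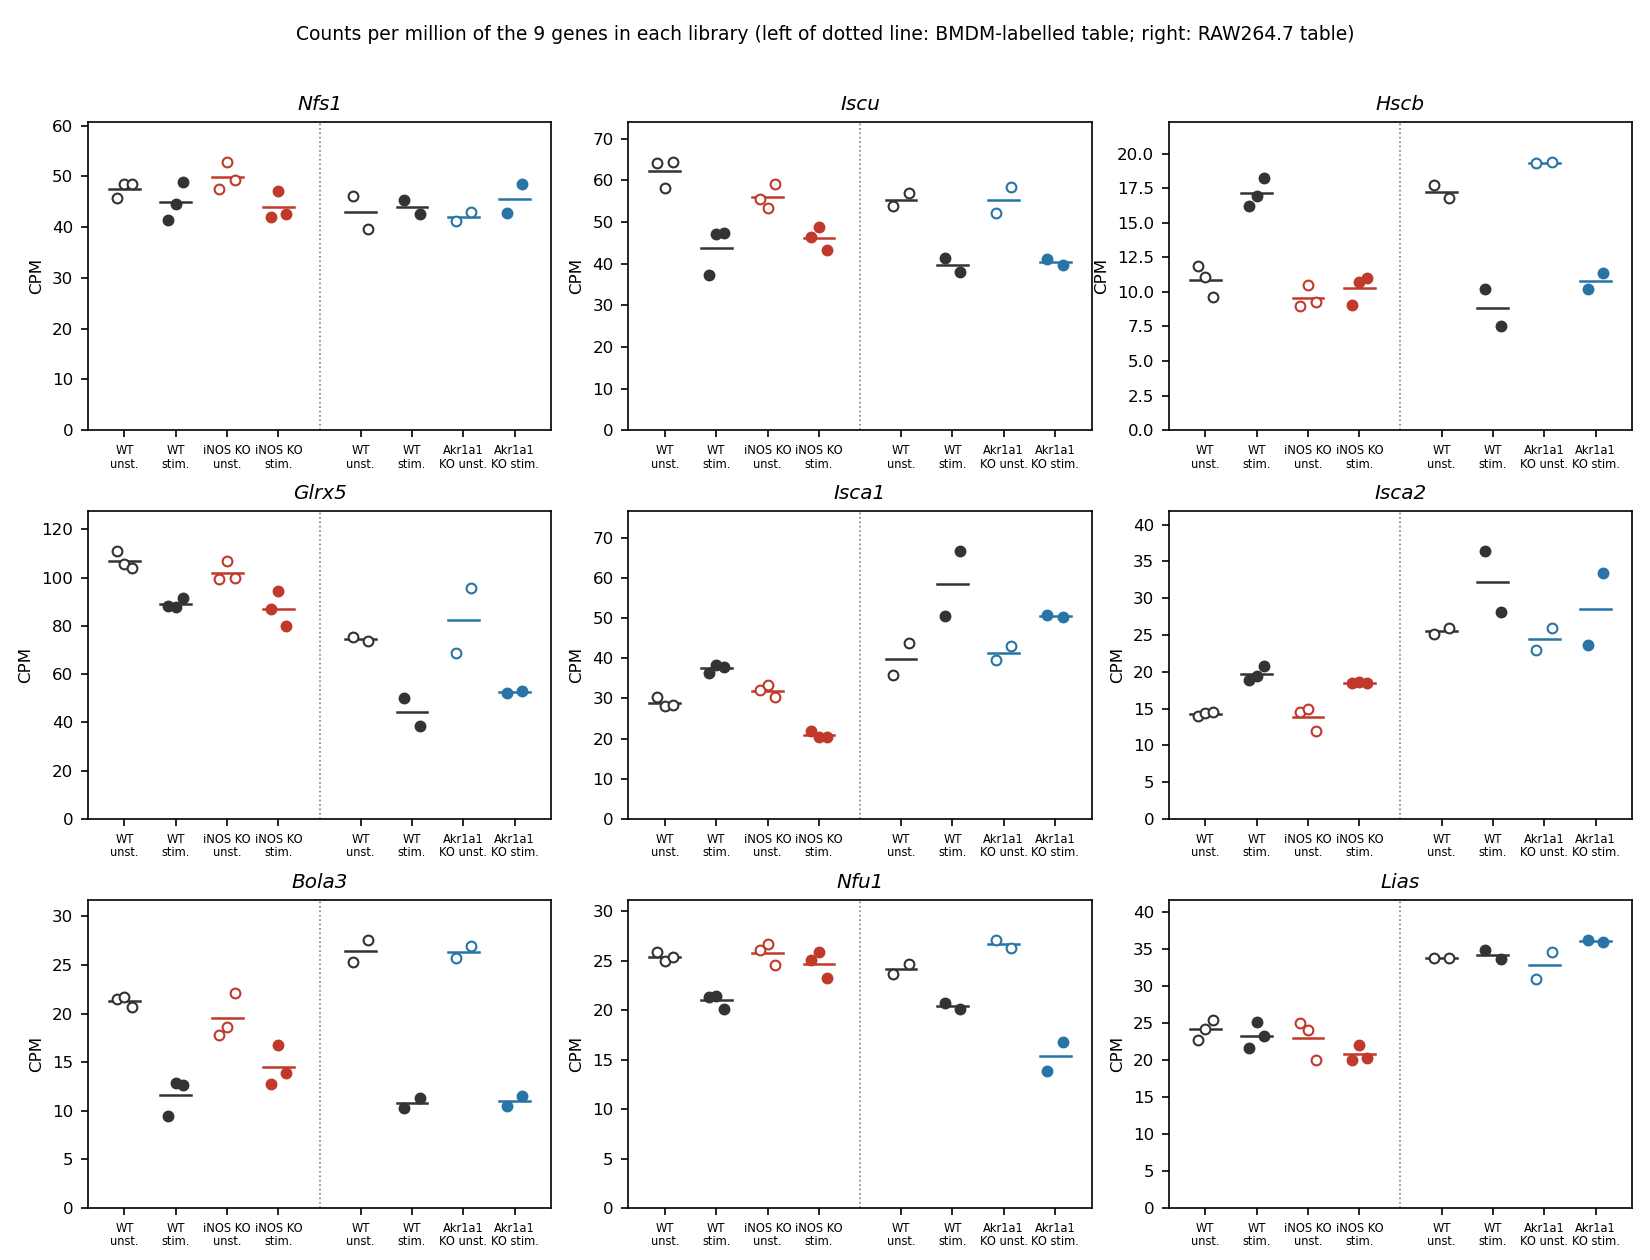
CPM of each of the 9 genes (1 panel a gene, vertical axis from 0) in all 20 libraries by group, with BMDM-labelled libraries left of the dotted line and RAW264.7 libraries right of it; points are libraries, open for unstimulated and filled for stimulated, and bars are group means. Isca1 rises in stimulated WT and falls in stimulated iNOS KO, Hscb rises in stimulated WT of the first table and falls in the second, and Bola3 is lower in all 4 stimulated groups.

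The same stimulation was then read without iNOS. In iNOS KO, 5 of 9 genes were called, where 51.9% of all genes tested were (27.3% higher and 24.6% lower). Isca2 rose, and Iscu, Glrx5, Bola3 and Isca1 fell, while Nfs1, Hscb, Nfu1 and Lias did not pass. Proliferation marker genes, 6 in number, moved with these groups: they summed to 1440 to 1632 CPM in unstimulated iNOS KO and 616.8 to 913.5 in stimulated iNOS KO, against 1376 to 1522 and 53.3 to 58.58 in the same states of WT. What this difference contributes to the members' values was not tested. The study states that BMDMs do not proliferate whatever their genotype or stimulation, and that NO made on stimulation inhibits RAW264.7 proliferation. Which of these cells the BMDM-labelled libraries hold was not tested.

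Isca2 was at 14.49, 14.98 and 11.95 CPM in unstimulated iNOS KO and 18.44, 18.68 and 18.44 in stimulated iNOS KO. It rose by 34.1% (log2 fold change 0.42 ± 0.0964, adjusted p = 0.00137), close to its rise in WT, and the difference between the 2 responses was -0.04 (95% interval -0.33 to 0.25). Isca1 was at 32.16, 33.29 and 30.25 unstimulated and 21.91, 20.41 and 20.41 stimulated. It fell by 34.4% (log2 fold change -0.61 ± 0.0773, adjusted p = 4.19e-06), opposite to its rise in WT. Hscb stayed between 8.955 and 10.5 CPM unstimulated and between 9.06 and 10.98 stimulated, and the ranges overlapped (log2 fold change 0.10, 95% interval -0.15 to 0.35, adjusted p = 0.507).

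Bola3 was at 17.77, 18.61 and 22.1 CPM in unstimulated iNOS KO and 12.79, 16.73 and 13.85 in stimulated iNOS KO, so replicates C before and B after stimulation were highest. It fell by 26% (log2 fold change -0.43 ± 0.128, adjusted p = 0.00897). Iscu was at 55.56, 53.29 and 59.03 unstimulated and 46.33, 48.9 and 43.27 stimulated, a fall of 17.6% (adjusted p = 0.0181). Glrx5 was at 99.57, 106.8 and 99.86 unstimulated and 86.88, 94.33 and 79.91 stimulated, a fall of 14.8% (adjusted p = 0.0111). None of these 3 genes overlapped between states (6 of 9 members did not, and 57.4% of all genes tested), but their calls were the weaker ones. Without unstimulated replicate C, Bola3 (adjusted p = 0.0591) and Iscu (0.0759) were lost. Without stimulated replicate C, Iscu (0.0668) and Glrx5 (0.0578) were lost, and without unstimulated replicate B Glrx5 was lost (0.0524). Without stimulated replicate B, which stood apart, 6 genes were called, the added one being Nfs1 (log2 fold change -0.23, adjusted p = 0.00998, against -0.18 and 0.0703 with it). Nfu1 ranged from 24.54 to 26.72 CPM unstimulated and from 23.22 to 25.89 stimulated (adjusted p = 0.545). Lias did not pass either (adjusted p = 0.221).

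The difference between the 2 stimulation responses, iNOS KO minus WT, was tested as an interaction and was called for 2 of 9 members, with 35.4% of all genes tested called. For Isca1 it was -0.98 ± 0.108 on the log2 scale (adjusted p = 1.69e-06), between -1.04 and -0.95 with any 1 library left out. For Hscb it was -0.55 ± 0.164 (adjusted p = 0.014), between -0.63 and -0.48 with any 1 library left out. Isca1 thus rose in WT and fell in iNOS KO, and Hscb rose in WT and did not pass in iNOS KO. The log2 fold changes of Bola3, -0.87 in WT and -0.43 in iNOS KO, differed by 0.43 ± 0.183, which did not pass (adjusted p = 0.0788). It passed without unstimulated iNOS KO replicate C (0.0422) and with no filter on counts (0.0488). For Iscu the difference was 0.22 (95% interval -0.05 to 0.50) and for Nfu1 0.21 (95% interval -0.03 to 0.45). Glrx5, Nfs1 and Lias had differences between -0.10 and 0.03, none called.

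**Figure D3:**
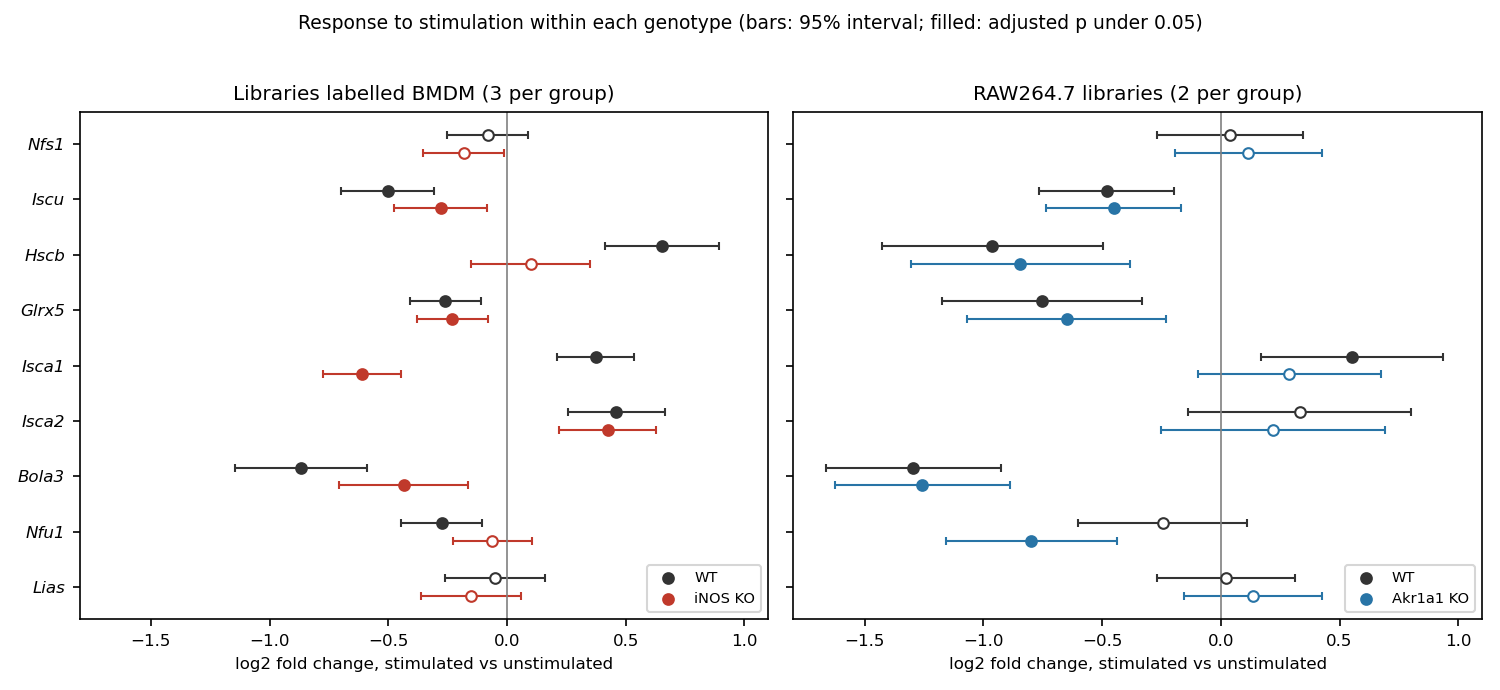
Log2 fold change of stimulated against unstimulated libraries for the 9 genes within each genotype, with BMDM-labelled libraries left and RAW264.7 libraries right; bars are 95% intervals and filled points have an adjusted p under 0.05. Isca1 at 0.37 in WT and -0.61 in iNOS KO is the widest split within a genotype pair, and Hscb lies at 0.65 in WT on the left and -0.96 in WT on the right.

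Set against stimulated WT directly, stimulated iNOS KO was called for 3 of 9 members, against 48.4% of all genes tested: Isca1 and Hscb were lower and Nfu1 higher. All 3 Isca1 values in iNOS KO (20.41 to 21.91 CPM) lay below those in WT (36.35 to 38.27), at 0.558 times the WT level (log2 fold change -0.84 ± 0.0779, adjusted p = 1.06e-07). Hscb at 9.06 to 10.98 CPM lay below 16.2 to 18.23 in WT and was lower by a log2 fold change of -0.74 ± 0.116 (adjusted p = 4.6e-05). Nfu1 was 17.6% higher without overlap (log2 fold change 0.23 ± 0.0812, adjusted p = 0.0252), but that call was lost without WT replicate C (adjusted p = 0.0845), iNOS KO replicate A (0.0834) or iNOS KO replicate B (0.0581), in DESeq2 (0.0589) and with no filter on counts (0.105). The groups of 4 of 9 members did not overlap, and those of 53.2% of all genes tested. Macrophage markers summed to 9967 to 10410 CPM in stimulated iNOS KO and 6575 to 7352 in stimulated WT, and 5 fibroblast markers to 10.38 to 15.82 and 3.578 to 4.921 CPM, with Col3a1 at 0 in both. Single genes weighed heavily in these sums: Lyz2 reached 7365 and 3846 CPM, and Dcn 15.52 and 2.565, in the same order. The part of these markers in the differences between genotypes was not tested.

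Of the other 6 members, Bola3 had the largest value, 0.31 ± 0.136 (95% interval 0.02 to 0.59, adjusted p = 0.0755), and its groups overlapped. Iscu differed by 0.07 (95% interval -0.13 to 0.27), Nfs1 by -0.03 (-0.21 to 0.14) and Glrx5 by -0.04 (-0.19 to 0.11). For the sulfur donor, the scaffold and the carrier, a difference of 0.28 or more on the log2 scale in either direction thus lay outside these intervals. Isca2 differed by -0.09 (95% interval -0.29 to 0.12) although its groups did not overlap, and Lias by -0.17 (-0.38 to 0.05). The median over the 9 genes was -0.04, and that of all genes tested was also -0.04.

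Without stimulation, iNOS KO and WT gave no called member, where 5.98% of all genes tested were called in edgeR. No member reached an unadjusted p under 0.05 (lowest 0.0832, Isca1), and DESeq2 called 0 as well. Log2 fold changes ran from -0.19 for Hscb (95% interval -0.43 to 0.06) to 0.14 for Isca1 (-0.02 to 0.30), and every member overlapped between the genotypes, where 29.1% of all genes tested did not.

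In RAW264.7 the 9 genes were read in the same way, from another normalization and with 2 libraries a group, so values are set beside the first table and not tested against it. In WT RAW264.7, 5 of 9 genes were called, where 37.7% of all genes tested were (18.5% higher and 19.2% lower): Iscu, Glrx5, Bola3 and Hscb fell and Isca1 rose. Proliferation markers again fell together, from 2633 to 2997 CPM in sum to 39.9 to 49.45, and their part in these values was not tested.

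Bola3 was at 25.27 and 27.54 CPM unstimulated and at 10.26 and 11.26 stimulated in WT. It fell by 59.2% (log2 fold change -1.29 ± 0.16, adjusted p = 0.000399), the largest change of any member in the series. Hscb was at 17.72 and 16.79 unstimulated and 10.19 and 7.541 stimulated. It fell by 48.7% (log2 fold change -0.96 ± 0.202, adjusted p = 0.00601), where the WT BMDM-labelled libraries had a rise. Glrx5 was at 75.59 and 73.75 unstimulated and 50.04 and 38.61 stimulated, and Iscu at 53.88 and 56.86 and then 41.42 and 37.99. Neither overlapped between states, with falls of 40.7% for Glrx5 (adjusted p = 0.0122) and 28.3% for Iscu (adjusted p = 0.0155). Isca1 was at 35.8 and 43.9 unstimulated and 50.49 and 66.58 stimulated, a rise of 46.7% (log2 fold change 0.55 ± 0.167, adjusted p = 0.0309). Isca2 was higher in both stimulated libraries (36.36 and 28.08 against 25.2 and 25.92 CPM) but did not pass (log2 fold change 0.33, 95% interval -0.14 to 0.80, adjusted p = 0.24). Nfu1 at -0.24 (95% interval -0.60 to 0.11), Nfs1 at 0.04 and Lias at 0.02 did not pass. With 2 libraries a group, 7 of 9 members did not overlap between states, and 68.2% of all genes tested did not.

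In Akr1a1 KO RAW264.7, 5 of 9 genes fell and none rose past the test, where 39.2% of all genes tested were called (19.8% higher and 19.4% lower). Bola3 went from 25.68 and 26.91 CPM to 10.52 and 11.49 (log2 fold change -1.26 ± 0.16, adjusted p = 0.000439). Hscb went from 19.32 and 19.37 to 10.18 and 11.36 (-0.84 ± 0.201, adjusted p = 0.0106). Nfu1 went from 27.09 and 26.29 to 13.87 and 16.82 (-0.80 ± 0.157, adjusted p = 0.00414), a fall of 42.5%. The states of 7 of 9 members did not overlap, these 3 among them, and neither did those of 72.0% of all genes tested. Glrx5 went from 68.95 and 95.84 to 52.32 and 52.92 (adjusted p = 0.0223), with replicate B unstimulated far above A, and Iscu from 52.07 and 58.49 to 41.2 and 39.74 (adjusted p = 0.0198). Isca1 at 39.58 and 43.08 and then 50.78 and 50.28 CPM did not pass (log2 fold change 0.29, 95% interval -0.10 to 0.67, adjusted p = 0.211), although the states did not overlap.

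The 7 macrophage markers summed to 3335 and 7007 CPM in the stimulated Akr1a1 KO libraries, 9110 to 9953 in stimulated WT and 2902 to 4483 in the unstimulated libraries, and their part in the RAW264.7 values was not tested. The highest of these markers was Lyz2, at up to 4682 CPM in stimulated Akr1a1 KO and 7100 in stimulated WT. Many RAW264.7 calls rested on single libraries. With 1 library left out, between 2 and 5 members were called in WT and between 2 and 4 in Akr1a1 KO. In WT, Isca1 was lost without unstimulated replicate A (adjusted p = 0.166) or stimulated replicate B (0.0785), and when only the compared groups were fitted (0.0667). Glrx5 was lost without those same libraries (0.0506 and 0.0731), and Iscu without unstimulated B (0.0836) or stimulated B (0.0731). In Akr1a1 KO, Hscb was lost without unstimulated A (0.0517), unstimulated B (0.0567) or stimulated A (0.0596), and Iscu without unstimulated B (0.138) or stimulated B (0.0773). Glrx5 was lost without stimulated A (0.0836) or stimulated B (0.0857), and without unstimulated B it moved to -0.39 (adjusted p = 0.172). Bola3 kept its call in all of these fits of both genotypes. With both unstimulated replicates B left out, the libraries whose titles disagree, 2 members remained called in WT, Bola3 (-1.23, adjusted p = 0.0196) and Glrx5 (-0.77, 0.0463), and 1 in Akr1a1 KO, Bola3 (-1.23, 0.0191).

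Between Akr1a1 KO and WT RAW264.7, edgeR called no member after stimulation (0.286% of all genes tested were called), none without it (0.583%) and none in the interaction (0.0204%), and DESeq2 called 0 in all 3. At an unadjusted p under 0.05 there was 1 member after stimulation, 0 without it and 1 in the interaction, in both cases Nfu1. Stimulated Akr1a1 KO had less Nfu1 than stimulated WT in both libraries (13.87 and 16.82 against 20.75 and 20.09 CPM), with a log2 fold change of -0.41 (95% interval -0.77 to -0.05, unadjusted p = 0.0303, adjusted p = 0.396). Its response to stimulation differed by -0.55 (95% interval -1.06 to -0.05, unadjusted p = 0.0355, adjusted p = 0.894). Neither passed over all genes. The intervals of the other members after stimulation reached as low as -0.65 (Isca2) and as high as 0.75 (Hscb), so with 2 libraries a group sizeable differences in either direction remained inside them.

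Side by side, Bola3, Iscu and Glrx5 fell in all 4 stimulation comparisons (2 genotypes in each of 2 tables), as did 10.3% of the 17398 genes tested in both tables. Bola3 had log2 fold changes of -0.87 and -0.43 in the BMDM-labelled table and -1.29 and -1.26 in RAW264.7. Iscu had -0.50, -0.28, -0.48 and -0.45, and Glrx5 -0.26, -0.23, -0.75 and -0.65 in the same order. Nfs1 and Lias passed in none of the 4. Isca1 was above 0 in 3 of the 4 and called in 2 of those, and fell in stimulated iNOS KO. Hscb rose in BMDM-labelled WT and fell in both RAW264.7 genotypes. WT and KO stimulated groups were each compared with their own unstimulated libraries, so the 4 comparisons share no library.

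The wider pathway was read from lists of genes that act beside the 9 or depend on them, in stimulated iNOS KO against stimulated WT, where 24.2% of all genes tested were called higher and 24.1% lower. Of 12 other mitochondrial assembly genes, 8 were higher and 1 lower, with a median log2 fold change of 0.72. They included Lyrm4, the small subunit that stabilizes NFS1, at 1.17 ± 0.123 (adjusted p = 5.19e-07). Iba57, which acts with ISCA1 and ISCA2, was lower at -0.82 ± 0.104 (adjusted p = 4.33e-06), as Isca1 was. Fdx2, a ferredoxin of the pathway, was also called higher but on 3 to 5 counts against 0 to 1, too few for a fold.

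Of 6 tested genes for octanoate synthesis and lipoate transfer, 2 were higher (Mecr at 0.68, Oxsm at 0.42) and 2 lower (Cbr4 at -0.69, Mcat at -0.35). The transferases that put the octanoyl or lipoyl group on proteins fell with stimulation in both genotypes, with log2 fold changes of -1.74 in WT and -1.77 in iNOS KO for Lipt2 and -1.63 and -1.94 for Lipt1. They did not pass between the stimulated genotypes, at -0.06 ± 0.163 for Lipt2 (adjusted p = 0.815) and -0.48 ± 0.308 for Lipt1 (adjusted p = 0.241), where Lipt1 had 9 to 15 counts a library. Of 5 lipoylated proteins, 4 were higher in stimulated iNOS KO, by 0.65 to 0.75, among them Dlat, the core of pyruvate dehydrogenase, at 0.73 ± 0.0639 (adjusted p = 5.56e-08), Dbt at 0.75 and Gcsh at 0.68. Dlst, the core of 2-oxoglutarate dehydrogenase, did not pass (-0.07 ± 0.0628, adjusted p = 0.374). Lias, which makes the lipoyl group they carry, did not pass in this comparison either. Between stimulated Akr1a1 KO and stimulated WT RAW264.7, Gcsh was lower at -1.045 ± 0.118 (adjusted p = 0.0132), with 2 libraries a group. It was the only one of the 5 lipoylated proteins called there, where 0.286% of all genes tested were. No gene of the other lists was called in that comparison. The response of Gcsh to stimulation was not called as different between these genotypes (interaction, adjusted p = 0.249). These values are mRNA. The study lists Lias among the genes higher in stimulated iNOS KO RAW264.7 cells at the protein level only.

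Of 12 mitochondrial Fe-S proteins, 7 were higher and 2 lower (median 0.27), led by Ndufs8 at 1.09, Cisd3 at 1.04 and Ndufv2 at 0.38, with Etfdh at -0.89 and Fech, the last enzyme of heme synthesis, at -0.30 lower. Of 11 cytosolic assembly genes, 5 were higher and 2 lower (median 0.26), with Bola2 at 1.04, Glrx3 at 0.67 and Nubp1 at 0.59, and with Mms19 at -0.41 and Ciao3 at -0.33. Of 16 cytosolic and nuclear Fe-S proteins, 11 were higher and 1 lower (median 0.72). The largest were Pold1 at 3.41, Prim2 at 2.73 and Brip1 at 2.58, which act in DNA replication and repair, and the lower one was Rsad2, the interferon-induced viperin, at -2.04. The 6 proliferation markers were all higher in this comparison, and their part in the lists was not tested. Among the 9 members themselves 1 was higher and 2 lower.

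**Figure D4:**
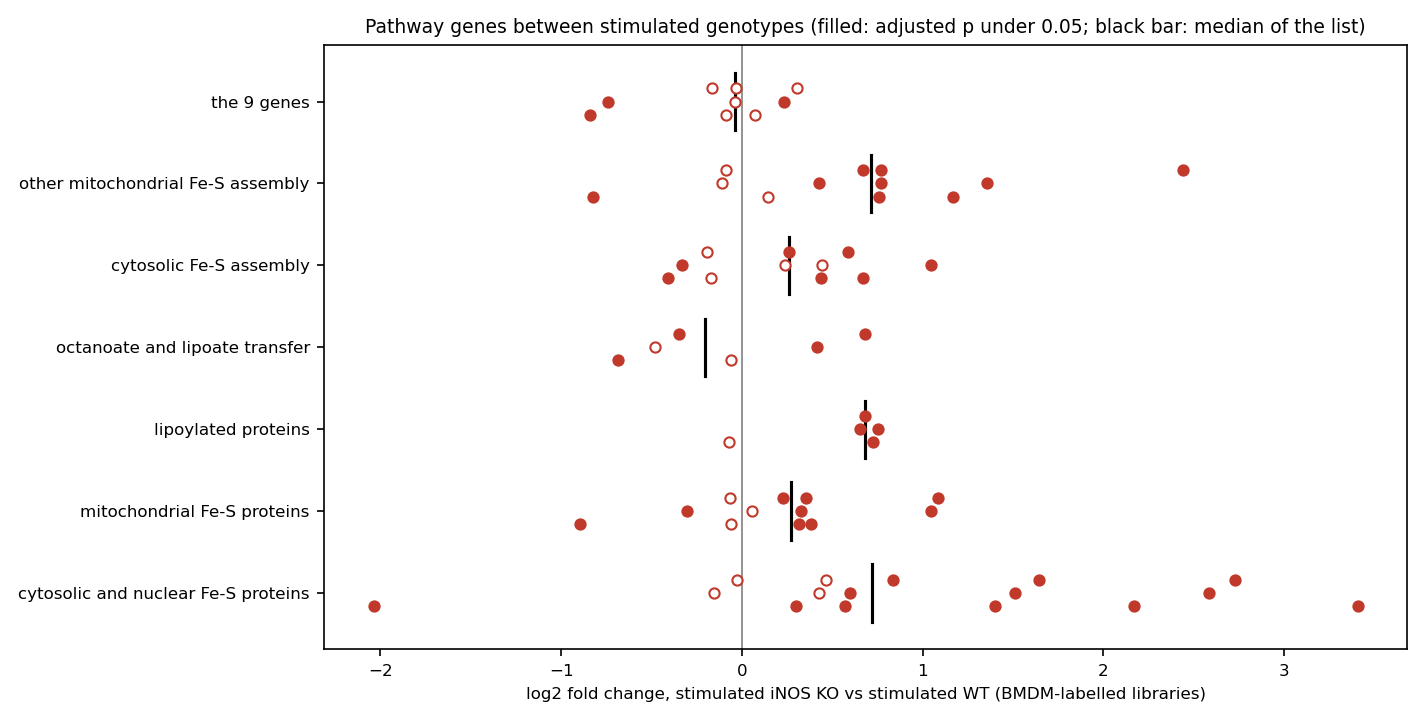
Log2 fold change of stimulated iNOS KO against stimulated WT BMDM-labelled libraries for the 9 genes and 6 lists around them, 1 point a gene (filled for an adjusted p under 0.05) with the median of each list as a black bar. The median of the 9 genes is -0.04, and the medians of the lists run from -0.20 for octanoate and lipoate transfer to 0.72 for cytosolic and nuclear Fe-S proteins.

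In WT stimulation of the BMDM-labelled libraries, 11 of the 12 other mitochondrial assembly genes fell and 1 rose (28.5% of all genes tested fell), with the ferredoxin reductase Fdxr at -1.81 and Iba57 the exception at 0.96. In WT RAW264.7, 5 of the 12 fell and none rose (19.2% fell). Nfs1 itself passed in neither.

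The members with the widest range of group means over the BMDM-labelled groups were Bola3 at 0.88, Isca1 at 0.84 and Hscb at 0.83 on the log2 CPM scale. Likeness was taken as the root mean square difference of centred log2 CPM over the 12 libraries, among protein-coding genes. Bola3 was most like Slc25a28 (0.0927), a mitochondrial iron importer, then Cuta (0.0972) and Cops7b (0.101). Isca1 was most like Ccdc134 (0.0753), Numb (0.0767) and Ago2 (0.0823). Hscb was most like Dguok (0.0777), the mitochondrial deoxyguanosine kinase, Cog2 (0.0994) and Maf1 (0.101). These are descriptions over libraries that share groups.

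The table lists Isca1 on chromosome 13 from 59903223 to 59917624 (minus strand), Hscb on chromosome 5 from 110976936 to 110987643 (minus strand) and Bola3 on chromosome 6 from 83326129 to 83337118 (plus strand). It names no build, and its positions differ from those of GRCm38, which the labels name as mm10, so promoter positions above and these are not on one scale. Nfs1 shares 148 bases with Romo1 and Isca1 shares 314 bases with the noncoding Etohd2, each on the opposite strand, and Lias shares 767 bases with 1110003F10Rik on the same strand. Romo1 had 166 to 1140 counts a library, Etohd2 6 to 102 and 1110003F10Rik at most 13. The strand setting of the counting is not given in the sources used here, so reads in those overlaps may belong to either gene. The same-strand models Gm28036 over Nfs1 and Gm49354 over Isca1 had at most 2 counts and 0 counts a library.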

How the data were processed

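RNA was poly(A)-selected and sequenced by Novogene, and the study's methods and the labels name CASAVA for quality control and STAR for alignment to mm10. The authors deposited whole-number read counts per gene in 2 tables, 1 for the 12 BMDM-labelled and 1 for the 8 RAW264.7 libraries. The counting tool, strand setting and annotation release are not given in the sources used here. Genes with at least 10 counts over a table were fitted in edgeR 4.0.16 (R 4.3.3; TMM scaling, quasi-likelihood test, 1 mean per group, no covariate), separately per table, with Benjamini-Hochberg adjustment over all genes tested. CPM used TMM-scaled library sizes. SEs and 95% intervals came from the same fit, and intervals cover the spread between libraries only. DESeq2 1.42.0, its size factors, other count filters, fits of the compared groups only, a replicate block, a fold limit and left-out libraries were tried. Scripts were tested on simulated data. Named genes were the 9 members, Nos2, Akr1a1 and Acod1, up to 3 called genes with the largest change per list and direction, fixed partners (among them Lipt1, Lipt2, Dlat and Dlst) and the 3 genes most like each of 3 members. Members and lists were chosen with earlier results of these data known. Hsd17b8 of the octanoate list was not analysed here, and a few named genes are not reported here. Positions, lengths and biotypes were used as the tables list them.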

Additional observations from a re-analysis of the deposited data

Results flagged for a closer look

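The stimulation response of Isca1 differed between genotypes of the BMDM-labelled libraries, by -0.98 on the log2 scale (iNOS KO minus WT, interaction test), with all 3 stimulated libraries higher in WT and all 3 lower in iNOS KO. The response of Hscb differed by -0.55 in the same test. Between the tables, Hscb moved by 0.65 in WT BMDM-labelled libraries and by -0.96 in WT RAW264.7, with every stimulated library above the unstimulated ones in the first and below them in the second, and this difference between tables was not tested.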

How the results depend on the processing

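With an added limit of 1 on the absolute log2 fold change, 0 members were called in stimulated iNOS KO against stimulated WT, in either BMDM-labelled stimulation comparison and in the iNOS interaction, and 1 (Bola3) in each RAW264.7 stimulation comparison. With 1 library left out, calls ranged from 2 to 3 in stimulated iNOS KO against stimulated WT, from 2 to 3 in the iNOS interaction, from 3 to 6 for iNOS KO stimulation, from 2 to 5 for WT RAW264.7 and from 2 to 4 for Akr1a1 KO RAW264.7 stimulation, where a lone library is assumed to vary like the other groups. With both unstimulated RAW264.7 replicates B left out, an alternative chosen after seeing the data, calls were 2 in WT and 1 in Akr1a1 KO, and Nfs1 in WT turned to -0.072. The other turned signs were of values near 0 that were not called: Glrx5 in the iNOS interaction at -0.018 with edgeR's filterByExpr, Nfs1 at 0.04 and Glrx5 at 0.035 between stimulated genotypes when only those groups were fitted, and Lias in WT RAW264.7 at -0.001 with no filter. With 1 library left out, uncalled values also turned sign within these ranges: Iscu (-0.034 to 0.13), Nfs1 (-0.089 to 0.033) and Glrx5 (-0.098 to 0.022) between stimulated genotypes, Glrx5 (-0.031 to 0.088) and Isca2 (-0.131 to 0.026) in the iNOS interaction, Lias (-0.106 to 0.001) in WT stimulation, and in RAW264.7 Isca2 (-0.037 to 0.441) in Akr1a1 KO stimulation, Hscb (-0.133 to 0.288) in the interaction and Nfs1 (-0.07 to 0.15) in WT stimulation. In the RAW264.7 genotype comparisons and their interaction, signs under these settings were followed only for Nfu1 and Hscb. Between unstimulated iNOS KO and WT they were followed only for Isca1 and Hscb. No called member changed direction under any alternative run. With filterByExpr, Nfs1 passed in iNOS KO stimulation (-0.19, adjusted p = 0.0329). The sources do not say that a replicate letter marks a shared animal, clone or day. Deviations of same-lettered BMDM-labelled libraries correlated between -0.47 and 0.45 over all pairs of groups, which does not pair them across groups. Between the states of one genotype, letters A, B and C gave 0.355, 0.453 and 0.096 in iNOS KO and -0.117, -0.227 and 0.07 in WT. Unstimulated A and stimulated C of iNOS KO also gave 0.365. A replicate block within each genotype was not run for these libraries. In RAW264.7, same-lettered unstimulated and stimulated libraries deviated together within a genotype (0.46 in WT, 0.20 in Akr1a1 KO) but not between genotypes (-0.14 to -0.02). With the letter as a replicate block, calls were 3, 0, 7, 5 and 2 in the 5 BMDM-labelled comparisons and 0, 0, 5, 5 and 0 in RAW264.7, as without it. Both a replicate block within each genotype (5, 5 and 0 for the RAW264.7 stimulation comparisons and their interaction, the same members) and the crossed pairing of Akr1a1 KO with WT libraries, chosen after seeing the data, gave the same counts. Counts reached as low as 136 for Bola3 and 134 for Hscb, and 2 libraries a group limit the RAW264.7 genotype comparisons.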
